A study of Zea mays with 6 samples.

Results

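LOC100037821 is a maize (Zea mays) gene whose deposited description is flavin monooxygenase and whose best listed protein match is the probable indole-3-pyruvate monooxygenase YUCCA11. It is 1 of 49785 genes in the count table, was taken by its gene name, and carries the synonym yuc in the reference gene table. The table places it on chromosome 10, bases 16490549 to 16493580 on the plus strand, with an exon length of 1452 bases, and no other gene of the table overlaps it. No genome build was named in the sources used here; the start is the same as in the Zm-B73-REFERENCE-NAM-5.0 gene table.

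RNA was sequenced from kernels of the shrek1 mutant (3 libraries) and of wild-type plants (WT, 3 libraries), all at 13 days after pollination, from field-grown plants and with the pericarp peeled off. The labels give neither the shrek1 allele nor the genetic background, and do not say whether each library was made from a different plant or ear. The p-values therefore measure the spread between these libraries, which may be partly technical.

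Auxin (indole-3-acetic acid, IAA) is made from tryptophan by a pair of consecutive reactions. Tryptophan aminotransferases (the TAA1 and TAR proteins) form indole-3-pyruvate, and YUCCA flavin monooxygenases turn that into auxin, a step regarded as limiting in many plant tissues. Maize endosperm, the starch- and protein-storing tissue of the kernel, accumulates large amounts of auxin and of its glucose and inositol esters, and loss of an endosperm YUCCA enzyme is known to give small kernels.

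The libraries held 17145006 to 20288565 counts each. Across tested genes, log2 CPM (counts scaled to a common library size) correlated at 0.974 to 0.985 between libraries of the same genotype and at 0.813 to 0.829 between genotypes; these are correlations over genes, which are not independent. Of 22681 genes tested, 64.4% passed edgeR's quasi-likelihood test at a Benjamini-Hochberg adjusted p of 0.05, 32.0% higher and 32.4% lower in shrek1. Called genes were the majority in this comparison, and 70.0% of tested genes had CPM values that did not overlap between the genotypes. The gene mutated in shrek1 was not matched to a row of the table, so the genotype labels were not checked with it.

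LOC100037821 fell 3.07-fold in shrek1 kernels. It had 1128, 1659 and 773 counts in shrek1 libraries 1, 2 and 3, against 3630, 4556 and 4684 counts in WT libraries 1, 2 and 3. Scaled by library size and TMM factors, which correct for differences in RNA composition, these were 65.3, 102.5 and 44.2 CPM in shrek1 and 201.0, 228.2 and 220.9 CPM in WT. All 3 shrek1 libraries lay below all 3 WT libraries, and the lowest WT library was 1.96 times the highest shrek1 library.

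**Figure D1:**
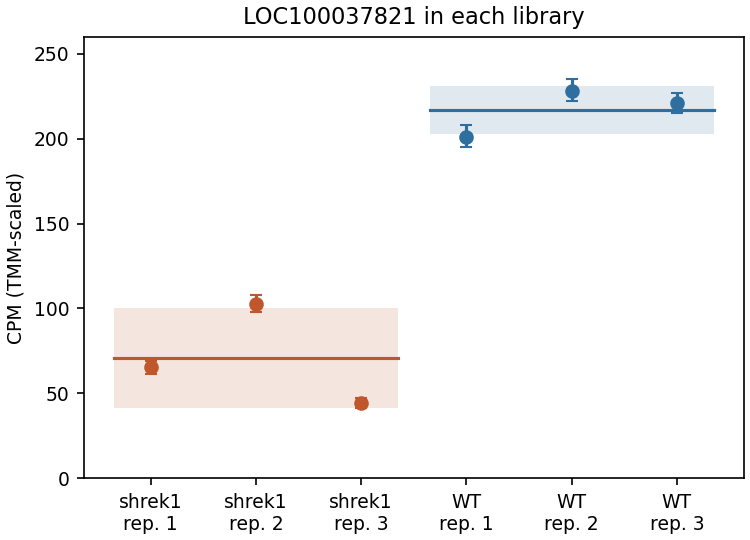
LOC100037821 in CPM (linear axis from 0) in each shrek1 and WT library; points are libraries with 95% counting intervals, lines are group means and shaded bands are 1 SD (n = 3 each). The shrek1 libraries sit between 44.2 and 102.5 CPM, below the WT libraries at 201.0 to 228.2 CPM.

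The mean was 70.7 ± 29.6 CPM in shrek1 and 216.7 ± 14.1 CPM in WT (SD, n = 3 each), so the shrek1 level was 32.6% of the WT level. By edgeR's quasi-likelihood test the log2 fold change was -1.62 ± 0.29 (SE; approximate 95% interval -2.18 to -1.06), with a Benjamini-Hochberg adjusted p of 0.00224 over all genes tested. A two-sided exact permutation test on the CPM gave p = 0.1, the smallest that 3 against 3 libraries allow. In RNA from peeled kernels, fewer cells of a type and less RNA per cell cannot be told apart.

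The shrek1 libraries differed more among themselves than the WT libraries did. The coefficient of variation was 41.8% in shrek1 and 6.5% in WT, and the highest library was 2.32 times the lowest in shrek1 and 1.14 times in WT. Counting error was smaller, at 2.46% to 3.6% of the value in the shrek1 libraries and 1.46% to 1.66% in the WT libraries. The 95% counting intervals of the 3 shrek1 libraries, 61.5 to 69.2, 97.7 to 108.0 and 41.1 to 47.4 CPM, did not overlap one another. Without shrek1 library 3, the lowest, the log2 fold change was -1.36, and without shrek1 library 2, the highest, it was -1.98; the call held in both fits.

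Per length of transcript, the gene was among the more abundant in the kernel. Its level in FPKM (fragments per kilobase, scaled by a size given to each library) was 44.0, 69.9 and 29.6 in shrek1 libraries 1, 2 and 3 and 135.2, 160.3 and 152.5 in WT libraries 1, 2 and 3. By FPKM it ranked 2536, 1643 and 3651 among the 49785 genes in the shrek1 libraries and 523, 463 and 467 in the WT libraries. Of those 49785 genes, 16047 had no count in any library.

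The size of the change can be set beside other genes. Of all tested genes, 13.1% had a lower log2 fold change than LOC100037821, and the median log2 fold change was -0.01. Among the 1696 genes with a mean of at least 100 CPM, where the median log2 fold change was 0.71, 13.8% were called lower and 4.13% had a lower log2 fold change.

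Markers of several, not all, kernel cell types differed between the genotypes too. Over all tested genes 32.4% were lower and 32.0% higher in shrek1. The summed CPM of 34 starchy endosperm genes, mostly zein storage proteins, was 73000.0 to 102000.0 in shrek1 and 140000.0 to 195000.0 in WT, with 27 members lower and 5 higher. By library, the starchy endosperm sum was 73000.0, 77600.0 and 102000.0 CPM in shrek1 libraries 1, 2 and 3 and 195000.0, 163000.0 and 140000.0 CPM in WT libraries 1, 2 and 3. The 10 embryo genes summed to 108.0 to 126.0 CPM in shrek1 and 7620.0 to 9380.0 CPM in WT, and all 9 that were tested fell. Among them the globulin 2 gene LOC542382 (glb2), picked with its values known, had no count in shrek1. The 4 aleurone genes summed to 752.0 to 987.0 CPM in shrek1 and 259.0 to 319.0 CPM in WT, and all 4 rose; the shrek1 libraries 1, 2 and 3 had sums of 777, 752 and 987 CPM. The 30 basal transfer layer genes summed to 229.0 to 281.0 CPM in shrek1 and 120.0 to 140.0 CPM in WT, with 9 members at 0 in all libraries and 2 of 5 tested members higher. The 4 genes of the embryo-surrounding region summed to 0.4 to 4.92 CPM in shrek1 and 0.301 to 2.27 CPM in WT. These sums overlapped, and neither of the 2 tested members was called. The pericarp gene was at 0 in 5 of 6 libraries. The part of these cell types in the change of LOC100037821 was not tested.

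The table held 19 genes of the YUCCA family, 7 of them at 0 counts throughout, and 6 passed the filter on low counts. Of those 6, 3 fell (LOC100037821 among them), 2 rose and 1 did not pass the test. Over all tested genes 32.4% fell and 32.0% rose, and a share of 6 genes cannot be set apart from that. The median log2 fold change was -1.03, with the filter favouring genes that were high in at least 1 genotype. Members changed in both directions, though 1 of the 2 that rose, LOC103631751, lost its call in 12 of 15 alternatives. LOC100037821 had the highest FPKM of the family in every library.

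**Figure D2:**
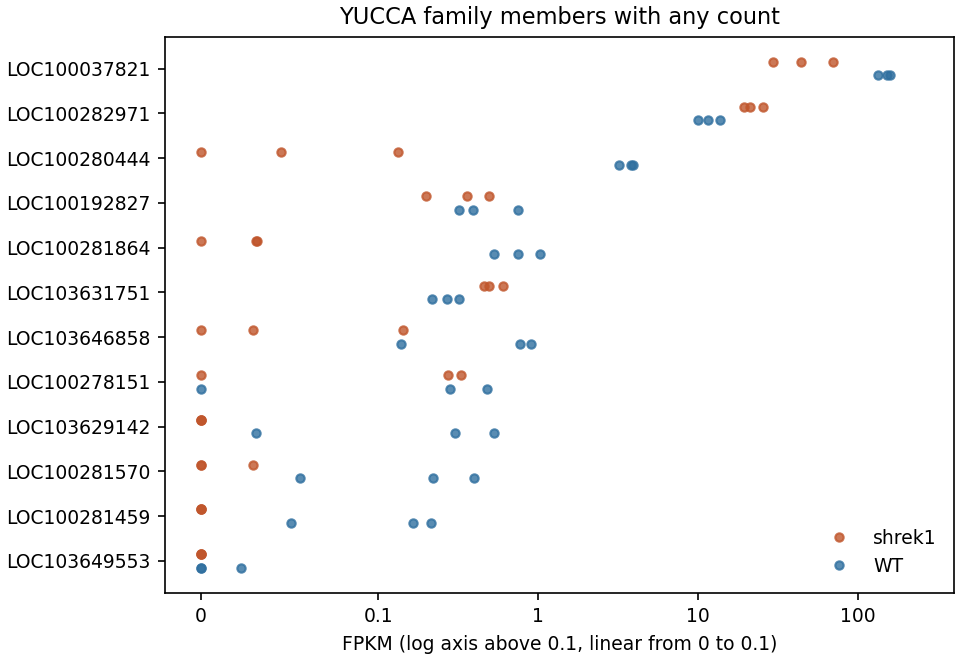
FPKM (log axis above 0.1, linear below) of the 12 YUCCA family members with any count, in each shrek1 and WT library (points, n = 3 each). LOC100037821 is the highest member in every library, with shrek1 values of 29.6 to 69.9 left of WT values of 135.2 to 160.3, while LOC100282971, next in level, has its shrek1 values right of its WT values.

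LOC100282971 (chromosome 8), whose best match is YUCCA10, changed the opposite way. It had 19.5, 21.3 and 25.8 FPKM in shrek1 libraries 1, 2 and 3 and 10.1, 13.9 and 11.6 FPKM in WT libraries 1, 2 and 3, with no overlap. Its log2 fold change was 0.94 ± 0.14 (SE), adjusted p = 0.000193 by the same edgeR test and adjustment. In FPKM, LOC100037821 was 1.15 to 3.28 times as high as LOC100282971 in the shrek1 libraries and 11.6 to 13.4 times as high in the WT libraries. This ratio was chosen after seeing the data and is given as a description.

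LOC100280444 (chromosome 3), with YUCCA1 as its best match, was nearly absent from shrek1. It had 1, 0 and 3 counts in shrek1 libraries 1, 2 and 3, against 75, 96 and 101 counts in WT libraries 1, 2 and 3. The log2 fold change was -5.75 ± 0.51 (SE), with an edgeR adjusted p of 4.56e-06. LOC100281864 (chromosome 2), matched to YUCCA5, had 1, 0 and 1 counts in shrek1 and 34, 26 and 20 counts in WT, a WT to shrek1 ratio of 34.4 (95% counting interval 9.22 to 289), and was called lower with an adjusted p of 0.000143 by edgeR. In the same libraries the embryo marker sum was 108.0 to 126.0 CPM in shrek1 and 7620.0 to 9380.0 CPM in WT, and its part in these 2 changes was not tested.

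LOC103631751 (chromosome 1), matched to YUCCA7, was called higher with 21, 18 and 26 counts in shrek1 and 12, 15 and 11 counts in WT. Its log2 fold change of 0.98 ± 0.38 (SE) had an edgeR adjusted p of 0.0425, and the call was lost in 12 of the 15 alternatives that tested it, among them each fit without 1 library (0.78 to 1.10). LOC100192827 (chromosome 8), matched to YUCCA2, did not pass: it had 6, 10 and 15 counts in shrek1 and 10, 25 and 14 in WT, with a log2 fold change of -0.44 ± 0.50 (edgeR adjusted p = 0.47).

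The other 6 members with counts did not pass the filter on low counts. Without that filter, 7 family members rather than 3 were called lower. LOC103629142 had no count in shrek1 and 15, 9 and 1 counts in WT, and LOC100281459 had no count in shrek1 and 8, 2 and 7 counts in WT; for both, 1 WT library was itself under the floor of 3 counts, and no fold is given. LOC100281570 had 1 count over the shrek1 libraries and 2, 15 and 9 counts in WT, a WT to shrek1 ratio of 22.4 (95% counting interval 3.67 to 917). LOC103646858 had 1, 0 and 5 counts in shrek1 and 5, 29 and 37 in WT, with shrek1 library 3 and WT library 1 at equal counts. The remaining pair, the long noncoding LOC100278151 and LOC103649553, had at most 6 counts in any library.

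As a share of the summed FPKM of the family, LOC100037821 held 68.4%, 75.7% and 51.9% in shrek1 libraries 1, 2 and 3, against 89.2%, 88.4% and 89.4% in WT libraries 1, 2 and 3. The means were 65.3% ± 12.2 in shrek1 and 89.0% ± 0.527 in WT (SD, n = 3 each), a difference of -23.7 percentage points. The shares did not overlap, and the two-sided exact permutation p was 0.1, the smallest possible here. After Benjamini-Hochberg adjustment over the 4 within-library ratios computed, not all of them planned, it was 0.1. Even at its lowest, in shrek1 library 3, the gene held more of the family's summed level than all other members together.

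Other flavin monooxygenase genes, relatives outside the YUCCA family that act on other substrates, served as a comparison. Of 16 such genes 4 were tested, 1 fell and 3 did not pass, with a median log2 fold change of -0.09. Among all tested genes 32.4% fell and 32.0% rose, and a share of 4 genes cannot be set apart from that. The most abundant, LOC100284450, averaged 22.4 ± 1.96 CPM in shrek1 and 20.96 ± 0.339 CPM in WT (SD, n = 3 each), and its log2 fold change of 0.10 ± 0.11 did not pass by edgeR (adjusted p = 0.442). LOC100272315, whose description is of the FMO GS-OX5 type, averaged 1.08 ± 0.311 CPM in shrek1 and 3.67 ± 0.666 CPM in WT and fell by 1.76 ± 0.32 (SE) on the log2 scale. These 2 genes were picked with their values known.

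Tryptophan aminotransferases act in the step before YUCCA. Of 6 such genes 4 were tested, of which 1 rose, 2 fell and 1 did not pass, with a median log2 fold change of -0.24; among all tested genes 32.0% rose and 32.4% fell, and a share of 4 genes cannot be set apart from that. LOC100272716 (chromosome 6), the most abundant, had 948.1, 1057 and 988.5 FPKM in shrek1 libraries 1, 2 and 3 and 703.1, 546.8 and 414.4 FPKM in WT libraries 1, 2 and 3. It rose by a log2 fold change of 0.87 ± 0.18 (SE; edgeR adjusted p = 0.00179), with no overlap between genotypes.

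The second most abundant aminotransferase gene, LOC100193435 (chromosome 6), had 521, 435.5 and 686.1 CPM in shrek1 and 502.5, 416.8 and 329.5 CPM in WT, with overlap between genotypes. Its log2 fold change of 0.40 ± 0.19 did not pass (edgeR adjusted p = 0.105); it was called without shrek1 library 2, at 0.55. LOC103649700 (chromosome 3) had 8.11, 6.92 and 13.4 CPM in shrek1 and 16.9, 22.7 and 13.0 CPM in WT, again with overlap. Its log2 fold change was -0.89 ± 0.28 (edgeR adjusted p = 0.0228), and among the fits that left out 1 library the call was lost without shrek1 library 1 (-0.77), shrek1 library 2 (-0.70) or WT library 2 (-0.66). LOC103634861 (chromosome 8) had 0.347, 0 and 0.457 CPM in shrek1 and 12.8, 14.0 and 9.20 CPM in WT, a log2 fold change of -5.42 ± 0.46 (edgeR adjusted p = 6.64e-06), beside the same drop of the embryo marker sum, whose part was not tested.

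Set against the summed FPKM of the aminotransferase list, LOC100037821 stood at 0.021 to 0.0526 of that sum in the shrek1 libraries and at 0.132 to 0.242 in the WT libraries. On the log2 scale the ratio was -4.85, -4.25 and -5.57 in shrek1 libraries 1, 2 and 3 and -2.92, -2.37 and -2.04 in WT libraries 1, 2 and 3, a difference of -2.45. The groups did not overlap (two-sided exact permutation p = 0.1, adjusted 0.1). A ratio within a library does not depend on how libraries are scaled to each other. It shows an unequal change in RNA of this gene and of the aminotransferase list, not which of them changed. Enzyme activity was not measured.

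**Figure D3:**
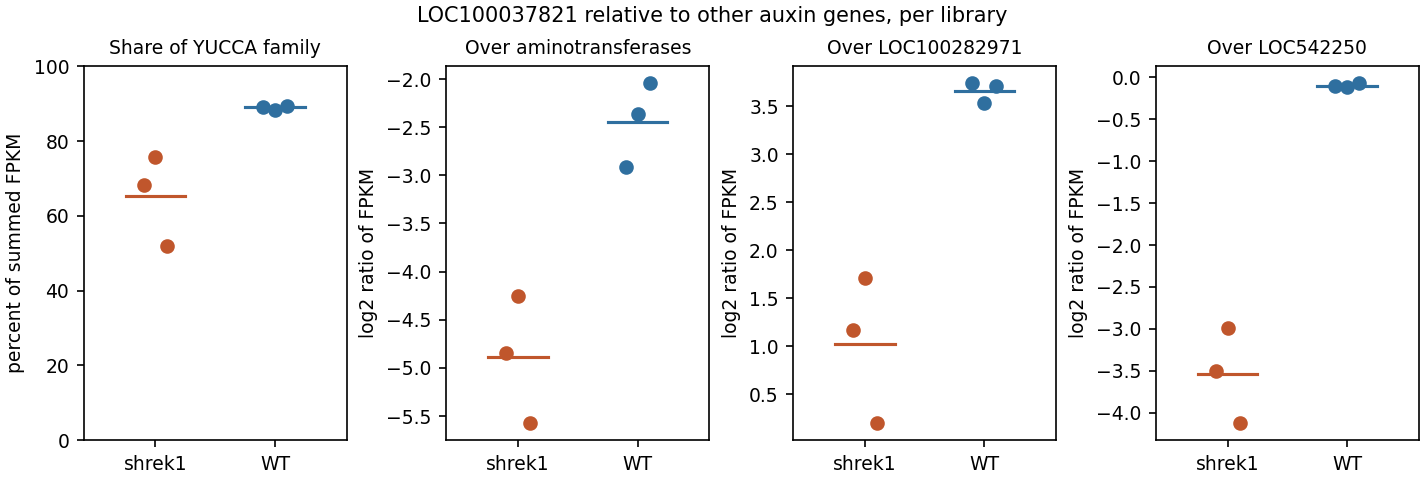
LOC100037821 relative to other auxin genes in each shrek1 and WT library, as percent of the summed YUCCA family FPKM (axis from 0) and as log2 ratios of FPKM; points are libraries and lines are means (n = 3 each). In all 4 panels the shrek1 libraries lie below the WT libraries, with differences of -23.7 percentage points and, on the log2 scale, -2.45, -2.63 and -3.44. The ratios to LOC100282971 and LOC542250 were chosen after seeing the data, so their direction adds no support.

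Upstream of both steps, tryptophan is made from chorismate by anthranilate synthase and the later enzymes ending in tryptophan synthase. Of 20 genes of tryptophan synthesis 15 were tested, of which 4 rose, 7 fell and 4 did not pass (median log2 fold change -0.14); 64.4% of all tested genes were called, 32.0% higher and 32.4% lower. Orange pericarp 2 (LOC732803, chromosome 10), a tryptophan synthase beta gene, averaged 213.6 ± 39.8 CPM in shrek1 and 105.6 ± 13.4 CPM in WT (SD, n = 3 each) and rose by a log2 fold change of 1.02 ± 0.14 (SE). Anthranilate synthase homolog1 (LOC542286, chromosome 2) averaged 98.3 ± 6.17 CPM in shrek1 and 120.6 ± 9.19 CPM in WT and fell by 0.29 ± 0.09 on the log2 scale; the call was lost without shrek1 library 1 (-0.26), shrek1 library 3 (-0.26) or WT library 2 (-0.24).

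Downstream, 7 genes carry descriptions of auxin glucose ester formation, though LOC542250 is the only member whose best protein match is also an indole-3-acetate glucosyltransferase; the others match glucosyltransferases of other or unnamed substrates. Of the 7 members 5 were tested, 4 rose and 1 did not pass, with a median log2 fold change of 1.74 (32.0% of all tested genes rose). That median is the value of LOC542250 itself, and the share of so few genes was not tested against that of all genes. LOC542250 (chromosome 1), the IAA-glucose synthetase gene that starts the ester pathway, had 722.7, 793.1 and 751.9 CPM in shrek1 libraries 1, 2 and 3 and 210.4, 241.5 and 226.0 CPM in WT libraries 1, 2 and 3. It rose by a log2 fold change of 1.74 ± 0.10 (SE; edgeR adjusted p = 2.62e-07). The FPKM of LOC100037821 was 0.0573 to 0.126 of that of LOC542250 in the shrek1 libraries and 0.922 to 0.953 of it in the WT libraries. The difference was -3.44 on the log2 scale. This ratio was chosen after seeing that LOC542250 rose, so its direction follows from the choice and is given as a description.

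GH3 enzymes join auxin to amino acids and many are themselves auxin-induced in other plants. Of 9 amido conjugation genes, all tested, 5 fell, 2 rose and 2 did not pass (median log2 fold change -0.69). Over all tested genes 32.4% were lower and 32.0% higher, and so few genes cannot be set apart from that. LOC100280445 (chromosome 2), a GH3.8 match, had 9.32, 7.17 and 6.51 CPM in shrek1 and 33.0, 61.2 and 105.0 CPM in WT, a log2 fold change of -3.11 ± 0.44 (SE; edgeR adjusted p = 0.000778). LOC103648032 (GH3.13, chromosome 2) rose, averaging 6.41 ± 1.07 CPM in shrek1 and 3.54 ± 0.289 CPM in WT.

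Conjugate hydrolysis frees auxin from its amino acid conjugates, and oxidation inactivates it. Of 9 hydrolase genes 8 were tested, 4 fell and 3 rose, and of 3 oxidation genes 1 rose and 1 fell; with 32.4% lower and 32.0% higher among all tested genes, these small counts show nothing particular to either step. Among the hydrolase genes, the most abundant that rose, LOC100274316 (ILR1-like 4, chromosome 3), averaged 172.6 ± 16.7 CPM in shrek1 and 129.6 ± 9.87 CPM in WT, with its call lost under library size as the only scaling (log2 fold change 0.13). The hydrolase gene LOC100383476 (chromosome 7) averaged 34.7 ± 5.12 CPM in shrek1 and 92.0 ± 7.75 CPM in WT and fell by 1.41 ± 0.12 on the log2 scale. Of the oxidation genes, LOC100272363 (chromosome 2) averaged 17.2 ± 3.83 CPM in shrek1 and 10.7 ± 1.48 CPM in WT, called higher but not with library size only (0.39), and LOC100283080 (chromosome 1) fell to 1.02 ± 0.381 CPM in shrek1, against 4.85 ± 0.555 CPM in WT.

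Transport genes encode the carriers that move auxin into, out of and within cells. Of 23 members 14 were tested, 9 fell, 3 rose and 2 did not pass (32.4% lower and 32.0% higher over all tested genes), with a median log2 fold change of -1.49. The most abundant member that fell, LOC100281987 (chromosome 4), is of the PIN-LIKES type, which acts at the endoplasmic reticulum, and averaged 24.6 ± 2.11 CPM in shrek1 and 35.04 ± 3.09 CPM in WT. The most abundant member that rose, LOC103632939 (PIN-LIKES 3, chromosome 7), averaged 1.81 ± 0.135 CPM in shrek1 and 0.732 ± 0.11 CPM in WT. A larger fall was that of auxin import carrier 1 (LOC541998, chromosome 1), picked with its values known. It had 10, 2 and 15 counts in shrek1 and 336, 533 and 424 counts in WT, a log2 fold change of -5.35 ± 0.36 (SE; edgeR adjusted p = 1.45e-06). The embryo marker sum was 108.0 to 126.0 CPM in shrek1 and 7620.0 to 9380.0 CPM in WT in the same libraries, and its part in the changes of transport genes was not tested. Of 8 auxin receptor genes, all tested, 5 fell and 3 did not pass (median -0.40), with LOC103635896 (chromosome 8) at 21.5 ± 1.18 CPM in shrek1 and 28.3 ± 2.21 CPM in WT.

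Aux/IAA proteins repress auxin responses until auxin triggers their breakdown, and many of their genes are auxin-induced. Of 39 members 23 were tested, 16 fell and 7 did not pass, with a median log2 fold change of -1.78, beside 32.4% lower and a median of -0.01 over all tested genes. The embryo marker sum given above was also lower in shrek1, and its part in the Aux/IAA changes was not tested. IAA17 (LOC100191581, chromosome 6) had 11.9 ± 0.313 CPM in shrek1 and 63.1 ± 6.75 CPM in WT (SD, n = 3 each), a log2 fold change of -2.41 ± 0.11 (SE; edgeR adjusted p = 9.08e-08).

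Auxin response factors bind the promoters of auxin-responsive genes. Of 43 members 36 were tested, 25 fell, 4 rose and 7 did not pass (median log2 fold change -1.05), beside the same 32.4% lower and 32.0% higher over all tested genes. ARF15 (LOC103630727, chromosome 6) averaged 133.6 ± 3.47 CPM in shrek1 and 87.0 ± 7.98 CPM in WT and rose, and LOC100285977 (chromosome 5) averaged 158 ± 9.31 CPM in shrek1 and 204.7 ± 5.64 CPM in WT and fell, a call lost with an offset for gene length (-0.20). Of 63 SAUR genes, named as small auxin-up RNAs, 17 were tested, 7 fell, 5 rose and 5 did not pass, shares near the 32.4% lower and 32.0% higher of all tested genes. SAUR33 (LOC100280488, chromosome 1) averaged 34.8 ± 4.18 CPM in shrek1 and 25.3 ± 3.77 CPM in WT, with a log2 fold change of 0.46 ± 0.13. Its call was lost with library size only (0.18), without shrek1 library 1 (0.37) and without WT library 3 (0.33), and the value became -0.01 with the offset for gene length. LOC100279159 (chromosome 6) averaged 11.5 ± 3.02 CPM in shrek1 and 20.1 ± 2.79 CPM in WT and fell.

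**Figure D4:**
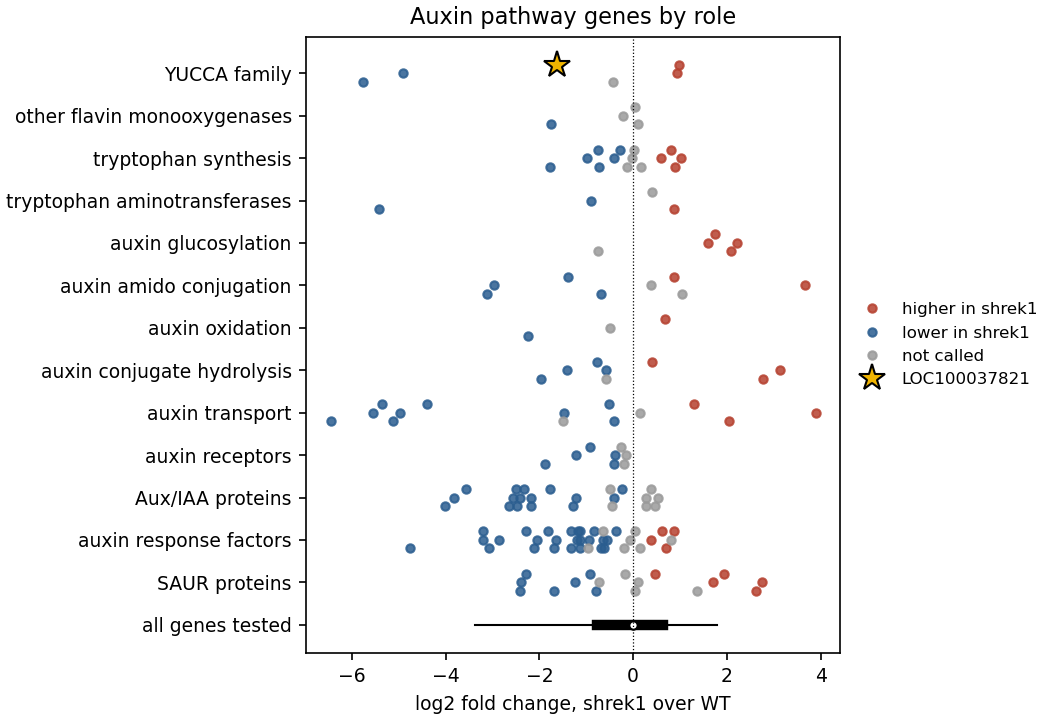
Log2 fold change of shrek1 over WT for tested members of each auxin list (points; red higher, blue lower, grey not called), with LOC100037821 as a star; 2 tested members with no count in shrek1 are left out. The bottom row gives all tested genes as the median (-0.01, white point), the 25th to 75th percentiles (-0.78 to 0.628, thick line) and the 5th to 95th (-3.37 to 1.79, thin line). Called glucosylation genes lie to the right of 0 and called Aux/IAA genes to the left.

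The 12 auxin lists, without the other flavin monooxygenases, hold 249 genes, of which 148 were tested, 84 fell and 29 rose, with a median log2 fold change of -0.69. Of all tested genes, 32.4% fell and 32.0% rose, with a median of -0.01. The log2 fold change of LOC100037821 was -1.62, and the list medians ran from -1.78 for the Aux/IAA genes and -1.49 for transport to 1.74 for glucosylation, with members spread widely around them. The glucosylation median rests on 5 tested genes and is the value of LOC542250.

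The 5 genes most like LOC100037821 over the 6 libraries were found by the distance between log2 CPM profiles, each centred on its own mean, among 12109 other genes with a mean of at least 10 CPM. They were LOC100279880 (an alpha/beta-hydrolase gene, chromosome 9; distance 0.265), LOC100279317 (SET DOMAIN GROUP 40 match, chromosome 7; 0.379), LOC100194215 (S-acyltransferase 22, chromosome 7; 0.402), LOC542638 (kinesin-related protein13, chromosome 1; 0.418) and LOC606444 (4-hydroxyphenylpyruvate dioxygenase 1, chromosome 5; 0.424). Since they were chosen on these 6 libraries, their fold changes and their order over the libraries follow from the choice and are given as a description. Their log2 fold changes ran from -1.90 to -1.66, and each was highest within shrek1 in library 2 and lowest in library 3. None of the 5 is in an auxin list.

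**Figure D5:**
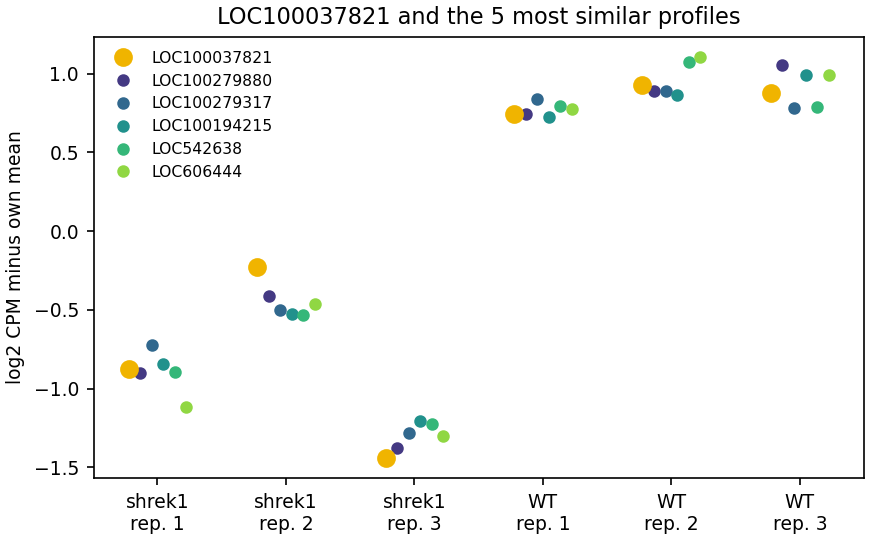
Log2 CPM minus the gene's own mean over the 6 libraries, for LOC100037821 (large points) and the 5 genes chosen for the smallest distance to it in these libraries. All 6 genes lie below their mean in every shrek1 library and above it in every WT library, and within shrek1 library 3 is the lowest.

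The neighbouring genes on chromosome 10 did not all change alike. The nearest upstream gene, the long noncoding LOC103640893, lies 944 bases away on the other strand and had 31, 47 and 27 counts in shrek1 and 105, 59 and 51 in WT. Its log2 fold change of -0.84 ± 0.38 did not pass (edgeR adjusted p = 0.08); it was called with library size only (-1.10), upper-quartile scaling (-0.97), without shrek1 library 2 (-1.14) and without WT library 3 (-1.12). Further upstream, LOC109943147 at 10295 bases and LOC100384721 at 14444 bases fell, with log2 fold changes of -1.93 ± 0.24 and -2.64 ± 0.15. Downstream, LOC100502471 at 51471 bases had 3 counts in all, and LOC100383616 at 136801 bases rose, with a log2 fold change of 1.04 ± 0.12.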

How the data were processed

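RNA-seq of maize kernels was used, 3 shrek1 and 3 WT libraries, grouped by the genotype label. The deposited table holds raw counts per gene, which the authors did not normalize. The FPKM values they deposited equalled those counts divided by gene length and 1 size per library (largest deviation 6.66e-05%). That size was not the library's total counts, so fits on FPKM carry the scaling already in those values. The submitters' processing notes name HISAT2 2.0.5 and featureCounts 1.5.0-p3, with no stated role or strand setting; the library kit keeps strand, per the labels' protocols. The sources used here do not say how reads shared by similar family members were counted.

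Counts were fitted in R 4.3.3 with edgeR 4.0.16 (filterByExpr by group, TMM factors 0.864 to 0.936 in shrek1 and 1.055 to 1.163 in WT, robust quasi-likelihood test, two-sided, Benjamini-Hochberg over 22681 genes, threshold 0.05). Standard errors of log2 fold changes are approximate, derived from the test's F value. The 95% interval of the log2 fold change takes a normal quantile, so with 3 libraries a group it is likely too narrow. Only genes past the threshold are said to have risen or fallen. Levels of different genes were compared in FPKM. Counting intervals are 95% and, like floors of 3 counts, cover counting error only. The script was also run on simulated counts with few changed genes, unlike these data, so that run does not check the scaling used here. Single values were tested by exact permutation (SciPy 1.17.1).

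The gene, the lists and the named genes were chosen with earlier results of these data known. Lists were matched by words in gene descriptions and narrowed after descriptions and counts were seen. Named genes are the tested YUCCA and aminotransferase genes, the most abundant called gene of each direction in every other list, and the 5 nearest profiles. Alternatives were other scalings, a length offset, no filter, DESeq2 1.42.0, limma 3.58.1 on log2 FPKM plus 1 or 0.1, omission of each library, and a replicate block. Of the gene identifiers, 49738 were found in the reference gene table, used for synonyms. No sequence was used here.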

Additional observations from a re-analysis of the deposited data

How the results depend on the processing

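LOC100037821 was called lower in all 17 alternatives, with log2 fold changes of -1.98 to -1.36 and adjusted p-values of 1.34e-11 (DESeq2) to 0.0195 (no filter). Its differences in share (-28.9 to -16.9 percentage points) and in ratios kept their sign under each alternative run; the ratios to LOC100282971 and LOC542250, and their alternatives, were chosen after seeing the data. Same-numbered libraries of the genotypes did not deviate together (correlations 0.096, -0.0493 and 0.028), and 1 of 3 shrek1 libraries correlated best with its own number. The main fit left the libraries unpaired. These correlations cannot tell whether the numbers stand for a shared origin, which the labels do not state. With a replicate block LOC100037821 stood at -1.69, and 7150 genes were higher and 7198 lower, against 7264 and 7345 without it. With library size as the only scaling, 34.0% of called genes were higher, against 49.7% with TMM, and the median of all genes shifted to -0.30; with upper-quartile scaling it was -0.15.

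Counts in small lists moved more. The YUCCA members called higher numbered 1 rather than 2 in 14 of 17 alternatives, and those called lower 7 rather than 3 with no filter and 5 with limma on unfiltered FPKM plus 1. Library size only gave 8 lower receptor genes rather than 5, 1 lower glucosylation gene (as did upper-quartile scaling and limma on filtered FPKM), and no higher oxidation gene rather than 1. Limma on filtered FPKM gave 1 higher amido conjugation gene rather than 2 and no higher transport gene rather than 3. That filter left out genes with a mean under 1 FPKM. The missing amido conjugation gene (LOC100383126) and all 3 transport genes were under it, so they were not tested in those fits. The aminotransferases called lower numbered 1 rather than 2 with the block (LOC103649700 at -0.89) and without shrek1 library 1, shrek1 library 2 or WT library 2. An Aux/IAA gene was called higher with no filter, with limma on unfiltered FPKM and without WT library 1. SAUR genes called lower numbered 4 to 13, against 7, and SAUR33 (LOC100280488) turned to -0.01 with the offset for gene length. Apart from the genes left out by the FPKM filter, the cause of these shifts was not tested. Of the 19 YUCCA members, 13 were under the filter on low counts, 7 of them with no count in any of the 6 libraries.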
